A study of Mus musculus with 19 samples.

Results

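The enzymes described here are those of foreign-compound and aldehyde metabolism: cytochromes P450 of families 1 to 4, their electron donor Por, epoxide hydrolases, aldehyde dehydrogenases, glutathione transferases, UDP-glucuronosyltransferases and sulfotransferases. Members were matched by gene symbol alone, under a rule chosen with earlier results of these data known. Of 46643 probes with 34509 symbols on the array, 195 probes with 131 symbols carried one of these names. Hearts of 19 FVB/N mice were collected at ZT 18, when the animals are active, and the RNA of each was measured on 1 Illumina bead array. The groups were 5 CCM mice on a high fat diet, 5 CCM mice on a normal diet, 4 wild-type (WT) mice on a high fat diet and 5 WT mice on a normal diet, each fed for 16 weeks. CCM mice are transgenic animals that lack a working clock in cardiomyocytes only, so the clocks of the other heart cells and of other organs were left in place, and the arrays measured whole heart tissue. In such bulk tissue, fewer cells of a type and less RNA per cell cannot be told apart. The labels give neither the promoter and line of the transgene nor the age and sex of the animals.

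Foreign compounds are cleared in steps. Cytochromes P450, fed with electrons by Por, add an oxygen atom, epoxide hydrolases open reactive epoxides and aldehyde dehydrogenases oxidise aldehydes to acids. Transferases then attach glutathione, glucuronic acid or sulfate, which makes the product easier to export. The heart uses the same enzymes on its own lipid products, such as fatty acid epoxides and the aldehydes that lipid peroxidation yields. In liver and kidney of mice the PAR bZIP transcription factors Dbp, Tef and Hlf, which are outputs of the circadian clock, are known to control some of these enzymes.

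Arrays had mean signals of 418.75 to 580.37, and 17117 to 18731 probes were detected on each (detection p under 0.05), of which 61 to 73 were members. The check of the genotype labels held in every animal: a Clock probe (ILMN_2600964) lay between 14.96 and 15.48 on the log2 scale in the 10 CCM hearts, against 6.16 to 8.40 in the 9 WT hearts. All 8 cardiomyocyte markers were tested and none was called between genotypes on either diet. Of 8 hepatocyte markers 4 were tested and none was called between genotypes, while Alb, Apoa2 and Fgb were detected on no array. The tested hepatocyte markers summed, on the linear scale, to 471.2 to 596.6 in CCM and 386.5 to 616.7 in WT hearts on the high fat diet, and to 432.7 to 645.1 in CCM and 423 to 541.9 in WT hearts on the normal diet. Over tested probes, Pearson correlations of arrays lay between 0.963 and 0.993 within groups and between 0.966 and 0.994 across groups.

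Most of the enzyme families were only partly detected in heart. A probe entered the tests when it was detected on at least 4 of the 19 arrays, which held for 75 member probes with 55 symbols, and 115 member probes were detected on no array. Glutathione transferases had 24 of 30 probes and 17 of 20 symbols tested. Aldehyde dehydrogenases had 15 of 28 probes tested, and both epoxide hydrolase probes were on all arrays. Of the CYP2 family, which holds most of the P450s listed, 13 of 61 probes were tested, and of the CYP3 family none of the 7 probes was detected on any array. Of UDP-glucuronosyltransferases 11 of 35 probes were tested, of sulfotransferases 3 of 14, of CYP4 4 of 12 and of CYP1 2 of 4. Both CYP1A enzymes, Cyp1a1 and Cyp1a2, were detected on no array, so the CYP1 family is represented by Cyp1b1. Por had 1 of its 2 probes tested.

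**Figure D1:**
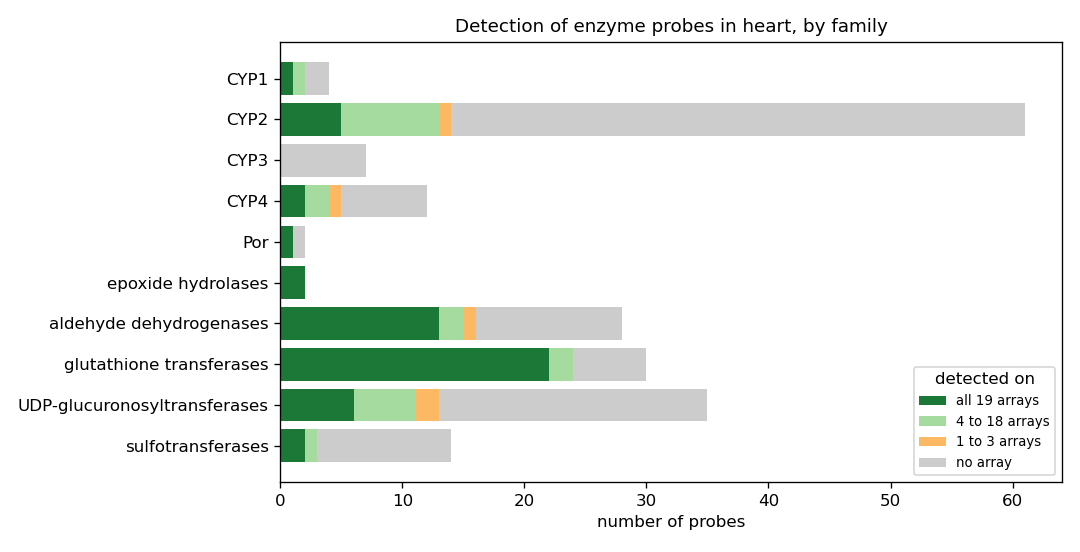
Number of member probes by enzyme family (horizontal axis), divided by the number of arrays on which a probe was detected. Of glutathione transferase probes 22 of 30 and of aldehyde dehydrogenase probes 13 of 28 were detected on all 19 arrays, whereas 47 of the 61 CYP2 probes and all 7 CYP3 probes were detected on none.

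The first comparison asks which of these enzymes differ between CCM and WT hearts at the time of collection. All hearts were collected at the same time of day, so levels at other times were not measured. Whether the phase, the size of a daily rhythm or the daily mean of an enzyme differed was not tested. On the high fat diet 4 member probes were lower in CCM hearts and none was higher, and on the normal diet again 4 were lower and none was higher (limma, adjusted p under 0.05 over 19840 probes). Over all probes, 1.59% were called on the high fat diet (0.902% lower and 0.691% higher), and 1.45% on the normal diet (0.887% lower and 0.559% higher). With the genotype difference averaged over both diets, 8 member probes of 5 genes were lower and none was higher, where 4.15% of all probes were called (2.17% lower and 1.98% higher). With a block for the animals' label numbers (10 under 20 and 9 over 20), Gstm7 was called higher. The 5 genes called lower were Cyp2b10, Gsta1, Gsta2, Gstm1 and Gstt1. The median difference of the 75 member probes was -0.08 log2 on the high fat diet, -0.04 on the normal diet and -0.07 over both, against 0.00, 0.01 and 0.00 over all probes tested. Differences below 0 were found for 51 member probes on the high fat diet (68% of 75, against 50% of all probes) and for 50 on the normal diet (66.7%, against 47.9%). At an unadjusted p under 0.05 stood 15 member probes on the high fat diet (20% of 75, against 9.58% of all probes) and 14 on the normal diet (18.7%, against 8.67%). Of these, 7 on the high fat diet and 11 on the normal diet were glutathione transferase probes, some of which may take up the same RNA. The shares are therefore not those of independent members spread over all families.

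The P450 Cyp2b10, the phenobarbital-inducible drug-metabolising enzyme known from liver, had the largest genotype difference of the members. Its probe ILMN_2594926 read 6.56, 7.06, 5.91, 6.51 and 5.80 log2 in CCM hearts on the high fat diet, against 8.67, 9.59, 9.70 and 8.66 in WT hearts on the same diet. Animals on the normal diet gave Cyp2b10 values of 6.10, 5.91, 5.92, 6.11 and 6.72 in CCM hearts, against 10.16, 9.01, 8.83, 8.68 and 9.46 in WT hearts. Every CCM heart was below every WT heart, on both diets and across them, and the high fat and normal groups of 1 genotype overlapped. The fall was 6.90-fold on the high fat diet (log2 difference -2.79 ± 0.31, SE, n = 5 and 4, adjusted p = 2.09e-05, limma). The fall was 8.43-fold on the normal diet (-3.07 ± 0.29, SE, n = 5 each, adjusted p = 2.39e-06, limma). Averaged over both diets the difference was -2.93 ± 0.21 (adjusted p = 2.48e-08, limma). The probe was detected on all 19 arrays, but CCM signals were low, and without background correction the averaged difference was -2.02, so the fold depends on how background is treated. A second Cyp2b10 probe (ILMN_1215955) was detected on no array, as were the probes of the related genes Cyp2b9, Cyp2b13, Cyp2b19 and Cyp2b23.

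The alpha-class glutathione transferases Gsta1 and Gsta2, which conjugate electrophiles and reduce lipid hydroperoxides, were lower in CCM hearts on all 5 of their probes when both diets were averaged. For Gsta2, probe ILMN_1248781 read 7.45, 7.21, 7.58, 6.95 and 6.70 log2 in CCM hearts on the high fat diet, against 8.16, 8.16, 8.34 and 7.86 in WT hearts. With the normal diet the same Gsta2 probe read 7.48, 6.92, 7.65, 6.79 and 7.28 in CCM hearts, against 8.20, 8.22, 7.63, 7.74 and 8.12 in WT hearts. The genotypes were apart on the high fat diet and overlapped on the normal diet, where 1 CCM heart (7.65) stood just above the lowest WT heart (7.63). The difference was -0.95 ± 0.20 on the high fat diet (SE, adjusted p = 0.0138, limma), -0.76 ± 0.19 on the normal diet (adjusted p = 0.048) and -0.85 ± 0.14 over both (adjusted p = 5.23e-04), the last a 1.81-fold fall. The other Gsta2 probe (ILMN_1248849) averaged 6.95 ± 0.27 in CCM and 7.47 ± 0.25 in WT hearts on the high fat diet, and 6.71 ± 0.32 in CCM and 7.37 ± 0.21 in WT hearts on the normal diet (SD). Its difference was past the threshold on the normal diet (-0.66 ± 0.16, SE, adjusted p = 0.0414, limma) and over both diets (-0.59 ± 0.12, adjusted p = 0.00398), whereas on the high fat diet it was -0.52 ± 0.17 with an adjusted p of 0.193.

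For Gsta1, probe ILMN_2657636 read 6.04, 5.78, 6.31, 6.25 and 5.76 log2 in CCM hearts on the high fat diet, against 6.92, 7.24, 7.29 and 6.83 in WT hearts. This Gsta1 probe read, on the normal diet, 5.87, 5.79, 6.71, 5.71 and 6.46 in CCM hearts, against 6.96, 6.79, 6.31, 6.84 and 6.72 in WT hearts. The genotypes were again apart on the high fat diet and overlapped on the normal diet, where 2 CCM hearts lay above the lowest WT heart. The difference was -1.04 ± 0.20 on the high fat diet (SE, adjusted p = 0.00605, limma), a 2.06-fold fall, -0.61 ± 0.19 on the normal diet (adjusted p = 0.146) and -0.83 ± 0.13 over both (adjusted p = 6.69e-04). Probe ILMN_2603019 of Gsta1 averaged 7.22 ± 0.32 in CCM and 7.92 ± 0.31 in WT hearts on the high fat diet, and 7.10 ± 0.37 in CCM and 7.91 ± 0.26 in WT hearts on the normal diet (SD). Here the normal diet passed the threshold (-0.81 ± 0.19, SE, adjusted p = 0.0329, limma) and the high fat diet did not (-0.70 ± 0.20, adjusted p = 0.105), with -0.76 ± 0.14 over both (adjusted p = 0.00196). Probe ILMN_1231997 of Gsta1 was detected in 5 of 10 CCM hearts and in all 9 WT hearts, and differed by -0.88 ± 0.17 on the high fat diet (adjusted p = 0.00789, limma), by -0.46 ± 0.16 on the normal diet (adjusted p = 0.259) and by -0.67 ± 0.12 over both (adjusted p = 0.00132). Which diet passed the threshold thus differed between probes of 1 gene, and no member probe passed it for a difference of the genotype effect between diets. Leaving out single animals ended Gsta1 and Gsta2 calls on the normal diet: the Gsta1 probe ILMN_2603019 lost its call without any of 8 animals, and the Gsta2 probes ILMN_1248781 and ILMN_1248849 without any of 15 and 12 of the 19. For Gsta1 ILMN_2603019 these were replicates 1 to 4 of CCM normal and 1, 2, 4 and 5 of WT normal. For Gsta2 ILMN_1248781 the call held only without replicates 3 or 5 of CCM high fat, 3 of CCM normal or 3 of WT normal. For Gsta2 ILMN_1248849 it was lost without replicates 1, 3 or 4 of CCM high fat, 1, 2 or 4 of CCM normal, 1 or 2 of WT high fat, or 1, 2, 4 or 5 of WT normal. On the high fat diet Gsta2 ILMN_1248781 lost its call without replicate 3 of WT high fat (adjusted p = 0.0588). The calls over both diets held without each of the 19 animals in turn. Gsta1 and Gsta2 are close paralogs, so that a probe may take up RNA of both, and their calls are not 5 independent results.

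Of the other alpha-class enzymes, Gsta4, which conjugates the lipid peroxidation product hydroxynonenal, averaged 11.93 ± 0.13 in CCM and 12.07 ± 0.25 in WT hearts on the high fat diet, and 11.87 ± 0.10 in CCM and 12.13 ± 0.12 in WT hearts on the normal diet (SD). Its difference over both diets was -0.20 ± 0.08 (SE) with an adjusted p of 0.187 (limma). For Gsta3, named after its values were seen, the difference over both diets was 0.03 (adjusted p = 0.947).

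**Figure D2:**
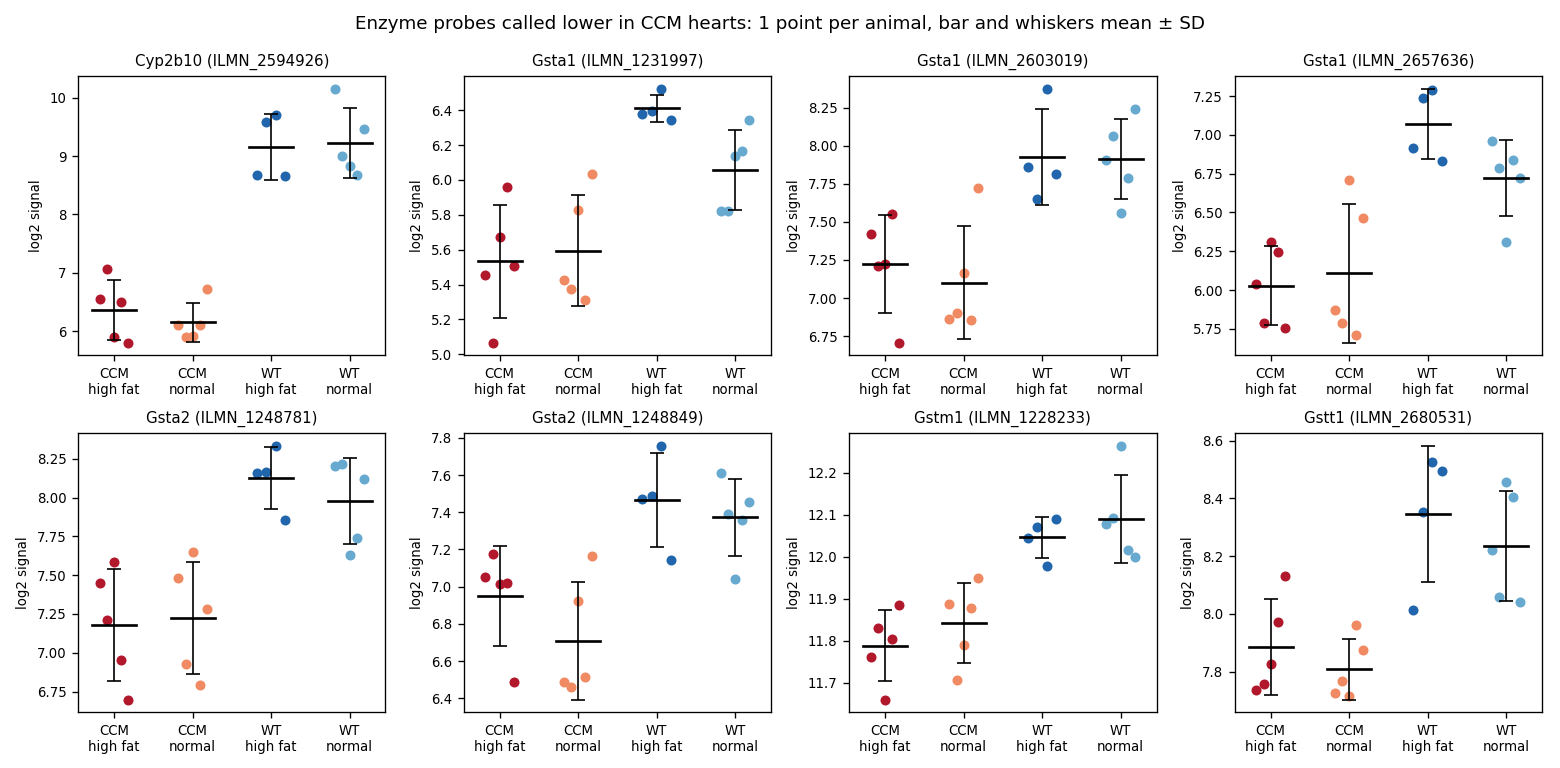
Log2 normalized signal (vertical axis) of the 8 member probes called lower in CCM hearts, 1 point per animal, by genotype and diet, with the mean and SD of each group. Cyp2b10 and Gstm1 have every CCM heart below every WT heart, whereas the Gsta1, Gsta2 and Gstt1 probes overlap in at least 1 animal.

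The mu-class enzyme Gstm1 showed a small but well separated difference. It read 11.76, 11.83, 11.66, 11.81 and 11.89 log2 in CCM hearts on the high fat diet, against 12.05, 12.07, 11.98 and 12.09 in WT hearts. On the normal diet Gstm1 read 11.89, 11.71, 11.79, 11.88 and 11.95 in CCM hearts, against 12.08, 12.09, 12.26, 12.02 and 12.00 in WT hearts. No CCM heart reached the lowest WT heart. The difference was -0.26 ± 0.08 on the high fat diet (SE, adjusted p = 0.146, limma), -0.25 ± 0.07 on the normal diet (adjusted p = 0.146) and -0.25 ± 0.05 over both (adjusted p = 0.00801), the last a 1.19-fold fall. With arrays shifted to equal medians instead of quantile normalized the averaged call was lost (adjusted p = 0.0947). The theta-class enzyme Gstt1, which conjugates small halogenated compounds, averaged 7.88 ± 0.17 in CCM and 8.35 ± 0.24 in WT hearts on the high fat diet, and 7.81 ± 0.11 in CCM and 8.24 ± 0.19 in WT hearts on the normal diet (SD). Gstt1 did not pass the threshold on the high fat diet (-0.46 ± 0.12, SE, adjusted p = 0.0674, limma) or the normal diet (-0.43 ± 0.11, adjusted p = 0.079), and did over both (-0.44 ± 0.08, adjusted p = 0.00254).

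Across all 24 tested glutathione transferase probes, 3 were called lower on each diet, 7 were called lower over both diets and none was called higher. Of all probes, 0.902% were called lower on the high fat diet, 0.887% on the normal diet and 2.17% over both. The calls on single diets were all of Gsta1 or Gsta2 probes, as were those over both diets except Gstm1 and Gstt1, so they are not independent. The median difference was -0.18 log2 on the high fat diet and -0.26 on the normal diet. Below 0 stood 18 of the 24 probes on the high fat diet (75%, against 50% of all probes) and 20 on the normal diet (83.3%, against 47.9%), and 18 were below 0 on both diets. With no background correction, with arrays shifted to equal medians or with the authors' normalized values, 18 to 20 of the 24 were below 0 on each diet. Gstm2, a mu-class enzyme with 2 probes, differed over both diets by -0.10 ± 0.06 on ILMN_2624854 and by -0.22 ± 0.24 on ILMN_2703921 (SE, adjusted p = 0.574 and 0.847, limma). Gsto1, an omega-class enzyme that reduces dehydroascorbate, differed by 0.15 ± 0.12 on the high fat diet and by -0.26 ± 0.11 on the normal diet (adjusted p = 0.808 and 0.494). The member furthest above 0 over both diets, named after its values were seen, was the mu-class Gstm7 at 0.62 with an adjusted p of 0.128. With animal numbers under and over 20 as a block Gstm7 was called higher (0.69, adjusted p = 0.0312), and its normal diet difference was 0.12 in animals under 20 and 1.30 in those over 20 (adjusted p = 0.901 and 0.0734). Genes of the mu class lie in a cluster of close copies, so that their probes too may be shared.

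Cell type markers were read beside these results. The erythroid markers tested, 6 of 8, were all below 0 on both diets with none called. Their summed normalized signal, on the linear scale, was 84630 to 111800 in CCM and 101300 to 109100 in WT hearts on the high fat diet, and 61290 to 91080 in CCM and 92190 to 109000 in WT hearts on the normal diet, and Epb4.2 was detected on no array. Of 5 smooth muscle and pericyte markers tested of 6, 3 were below 0 on the high fat diet and 2 on the normal diet. Among them Acta2 was lower on the high fat diet (-0.69 ± 0.17, SE, adjusted p = 0.0452, limma). The list summed to 11840 to 14370 in CCM and 15250 to 21320 in WT hearts on the high fat diet and to 11130 to 16610 in CCM and 14060 to 21150 in WT hearts on the normal diet. No endothelial, fibroblast or macrophage marker was called on either diet. Below 0 on the high fat diet were 5 of 8 endothelial, 2 of 7 fibroblast and 1 of 7 macrophage markers tested. On the normal diet 4 endothelial, 1 fibroblast and all 7 macrophage markers tested were below 0. The part of any of these cell types in the enzyme differences was not tested.

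The promoters of Cyp2b10, Gsta1 and Gsta2 are shown because these genes had the largest called differences. Each is a RefSeq window on GRCm38.p6 from 250 bases before to 50 bases after a transcription start, written 5′ to 3′ on the strand of the gene, with motif matches in capitals: Cyp2b10 at chr7:25897408-25897707 (+), Gsta1 at chr9:78230419-78230718 (+) and Gsta2 at chr9:78347096-78347395 (-).
Cyp2b10: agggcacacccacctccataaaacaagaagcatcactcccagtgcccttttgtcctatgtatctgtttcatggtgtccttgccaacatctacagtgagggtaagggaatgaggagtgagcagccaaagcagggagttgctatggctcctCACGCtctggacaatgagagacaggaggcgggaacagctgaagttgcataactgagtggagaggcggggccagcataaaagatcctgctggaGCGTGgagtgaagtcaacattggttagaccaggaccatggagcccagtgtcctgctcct
Gsta1: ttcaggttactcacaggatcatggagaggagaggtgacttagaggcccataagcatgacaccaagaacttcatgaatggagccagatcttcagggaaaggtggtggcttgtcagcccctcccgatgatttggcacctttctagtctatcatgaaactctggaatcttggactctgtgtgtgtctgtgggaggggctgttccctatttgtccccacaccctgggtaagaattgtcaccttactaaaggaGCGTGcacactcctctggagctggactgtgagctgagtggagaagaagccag
Gsta2: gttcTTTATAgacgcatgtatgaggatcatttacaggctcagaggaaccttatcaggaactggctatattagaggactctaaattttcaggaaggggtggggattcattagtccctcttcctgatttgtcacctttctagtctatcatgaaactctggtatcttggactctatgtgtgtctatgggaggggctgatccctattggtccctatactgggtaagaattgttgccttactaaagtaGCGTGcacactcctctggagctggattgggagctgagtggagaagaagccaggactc
Searched on both strands were the D-box TTANGTAA that PAR bZIP factors bind, the E-box CACGTG of CLOCK and its partner, the core GCGTG of the xenobiotic response element, the core TGACNNNGC of the antioxidant response element and the TATA box TATAAA, which are found in 2.32%, 7.15%, 32.4%, 12.4% and 13.6% of all 32851 promoter windows. Cyp2b10 held GCGTG or its reverse 2 times, Gsta1 and Gsta2 held it 1 time each, across the start in Gsta1 and just before it in Gsta2, Gsta2 held 1 TATAAA match on the reverse strand, and no matches shared bases. The Gsta1 and Gsta2 windows were 75.3% identical over 316 aligned columns. Neither the D-box, the E-box nor the antioxidant core is spelled in these 3 windows or in those of Gstm1 and Gstt1. Of the 131 member symbols 107 matched a window, and of their 124 windows 4 held the D-box (3.23%): those of Cyp2c38, Sult1a1, Ugt1a9 and Ugt2b1. These letters are a description of a short window and not a site.

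Among the other P450s no probe passed the threshold between genotypes. Cyp1b1, which hydroxylates oestradiol and polycyclic compounds, averaged 9.02 ± 0.31 in CCM and 9.03 ± 0.15 in WT hearts on the high fat diet, and 8.82 ± 0.27 in CCM and 8.66 ± 0.42 in WT hearts on the normal diet on ILMN_1232716 (SD). Its second probe (ILMN_2439431), on 5 arrays, differed by -0.16 over both diets (adjusted p = 0.403, limma). Cyp2d22 differed over both diets by 0.01 on ILMN_1214498 and 0.02 on ILMN_1237648, and Cyp2j9 by -0.02. The fatty acid and eicosanoid hydroxylases Cyp4f13, Cyp4f16 and Cyp4v3 differed by -0.10, -0.13 and 0.06 (adjusted p = 0.890, 0.773 and 0.906). Half-widths of the unadjusted 95% intervals over both diets had medians of 0.19 in the CYP2 and 0.23 in the CYP4 family. Differences smaller than that would mostly not have been separated from 0 even before adjustment. A call at the adjusted threshold asked for larger differences still.

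Cyp2e1, the ethanol-oxidising P450, varied widely between animals of 1 group. On ILMN_1214390 it read 5.49, 7.87, 5.21, 5.13 and 5.20 log2 in CCM hearts on the high fat diet, against 6.47, 8.19, 6.14 and 6.73 in WT hearts. The normal diet groups read for Cyp2e1 7.52, 5.39, 6.13, 8.73 and 6.24 in CCM hearts, against 5.56, 5.86, 6.85, 6.24 and 5.66 in WT hearts. The groups overlapped on both diets. The genotype difference was -1.11 ± 0.63 on the high fat diet and 0.77 ± 0.59 on the normal diet (SE, adjusted p = 0.649 and 0.909, limma), and on ILMN_2687014 it was -0.50 ± 0.51 and 0.48 ± 0.48 (adjusted p = 0.870 and 0.972). Single animals moved these Cyp2e1 values: on ILMN_1214390 the high fat difference was -1.63 without replicate 2 of CCM high fat and -0.67 without replicate 2 of WT high fat, and the normal diet difference was 0.28 without replicate 4 of CCM normal. On ILMN_2687014 the corresponding Cyp2e1 values were -0.92, -0.16 and 0.07. ILMN_1214390 was detected in 1 of 5 CCM hearts on the high fat diet, against 4 of 4 WT hearts, and in 4 of 5 CCM hearts on the normal diet, against 5 of 5 WT hearts. The difference between diets had an adjusted p of 1 on either probe (-1.87 ± 0.86 on ILMN_1214390, unadjusted p = 0.0426). The 4 hearts with the highest Cyp2e1 values on both probes (replicate 2 of CCM high fat, replicates 1 and 4 of CCM normal and replicate 2 of WT high fat) were also the 4 highest in Adipoq, Cfd and Car3, markers of adipocytes. Of 8 adipocyte markers 4 were tested, and Lep, Plin1, Retn and Ucp1 were detected on no array. The remaining tested marker, Cidec, was not ranked by animal. The tested markers summed to 267.9 to 1566 in CCM and 590.7 to 1831 in WT hearts on the high fat diet, and to 572.1 to 3721 in CCM and 367.6 to 772 in WT hearts on the normal diet. The part of adipocyte RNA in the Cyp2e1 values was not tested.

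**Figure D3:**
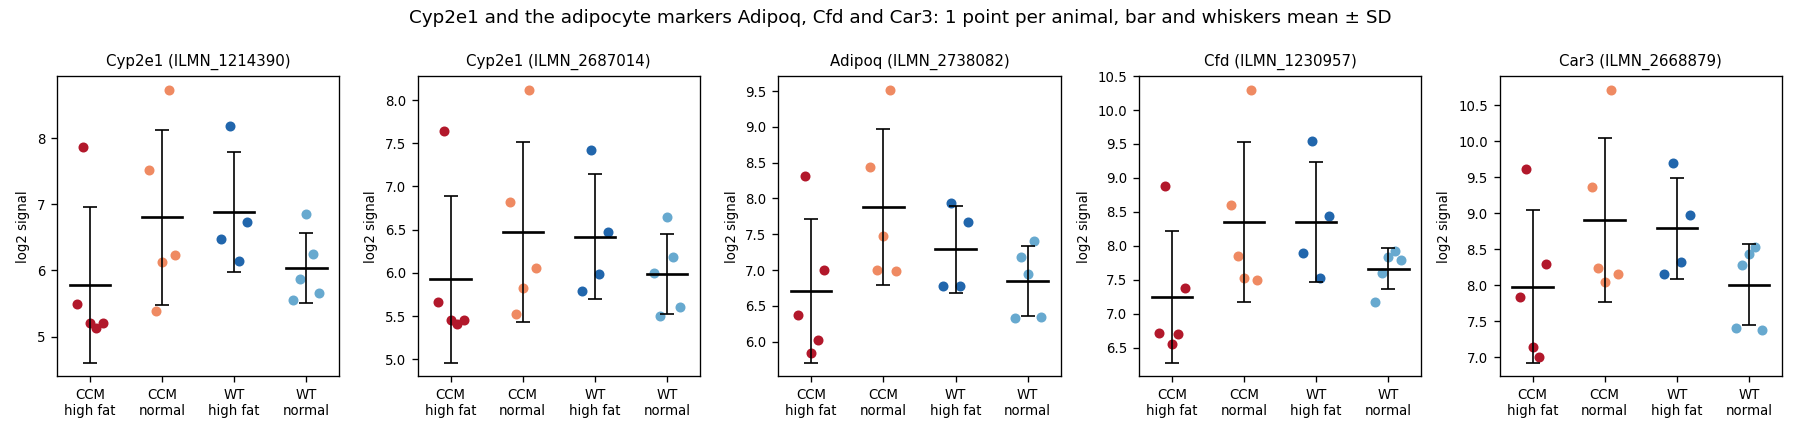
Log2 normalized signal (vertical axis) of both Cyp2e1 probes and of the adipocyte markers Adipoq, Cfd and Car3, 1 point per animal, by genotype and diet, with the mean and SD of each group. The same 4 hearts are highest in all 5 panels, with replicate 4 of CCM normal at the top of each. Cidec, the other adipocyte marker tested, is not shown.

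Por, which passes electrons to all microsomal P450s, read 7.99, 8.05, 7.92, 8.06 and 7.76 log2 in CCM hearts on the high fat diet, against 8.48, 8.09, 8.22 and 8.36 in WT hearts. With the normal diet Por read 7.68, 8.11, 8.20, 8.08 and 7.91 in CCM hearts, against 8.24, 8.05, 8.14, 8.39 and 8.21 in WT hearts. The genotypes were apart on the high fat diet and overlapped on the normal diet. The difference over both diets was -0.27 ± 0.08 (SE) and missed the threshold (adjusted p = 0.0538, limma). It passed without background correction (adjusted p = 0.0381), with the authors' normalized values (0.0381), with probes detected on all arrays (0.0425) and with 1 probe per symbol (0.0458).

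Both epoxide hydrolases were on all arrays and neither was called. Ephx1, the microsomal enzyme that opens foreign epoxides, averaged 9.52 ± 0.11 in CCM and 9.65 ± 0.19 in WT hearts on the high fat diet, and 9.38 ± 0.18 in CCM and 9.69 ± 0.25 in WT hearts on the normal diet (SD), a difference over both of -0.22 ± 0.09 (SE, adjusted p = 0.234, limma). Ephx2, the soluble enzyme that turns fatty acid epoxides into diols, averaged 13.00 ± 0.15 in CCM and 13.09 ± 0.14 in WT hearts on the high fat diet, and 12.79 ± 0.12 in CCM and 12.77 ± 0.12 in WT hearts on the normal diet (SD). Its genotype difference over both was -0.04 ± 0.07 (SE, adjusted p = 0.941).

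None of the 15 tested aldehyde dehydrogenase probes was called between genotypes, while 6 had an unadjusted p under 0.05 on the high fat diet (40%, against 9.58% of all probes) and 1 on the normal diet (6.67%, against 8.67%). Aldh2, the mitochondrial enzyme that oxidises acetaldehyde and lipid aldehydes, read 13.14, 13.37, 13.02, 13.17 and 13.39 log2 in CCM hearts on the high fat diet, against 13.54, 13.38, 13.54 and 13.94 in WT hearts. On the normal diet Aldh2 averaged 13.41 ± 0.14 in CCM and 13.55 ± 0.14 in WT hearts (SD). The groups overlapped by 1 CCM heart on the high fat diet, and the difference was -0.38 ± 0.12 there (SE, adjusted p = 0.144, limma), -0.14 ± 0.11 on the normal diet (adjusted p = 0.905) and -0.26 ± 0.08 over both (adjusted p = 0.0783). Aldh2 passed over both diets with no background correction (adjusted p = 0.0476), the authors' values (0.0474) or a trended and robust eBayes (0.0425). Aldh6a1, which oxidises methylmalonate semialdehyde in valine breakdown, read 13.17, 13.03, 13.09, 13.03 and 13.07 in CCM hearts on the high fat diet, against 13.33, 13.18, 13.18 and 13.44 in WT hearts, which were apart (-0.20 ± 0.08, adjusted p = 0.336). The 3 probes of Aldh5a1, the succinate semialdehyde dehydrogenase, differed over both diets by -0.13 on ILMN_2664660, -0.17 on ILMN_2490536 and 0.06 on ILMN_2452829 (adjusted p = 0.207, 0.358 and 0.884). Over the family the median difference was -0.16 on the high fat diet and -0.03 on the normal diet.

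No UDP-glucuronosyltransferase or sulfotransferase probe was called. The 11 glucuronosyltransferase probes had a median difference of 0.00 on the high fat diet and 0.05 on the normal diet, within -0.31 to 0.23 and -0.21 to 0.21. The 4 Ugt1a10 probes differed over both diets by -0.06 on ILMN_2493826, 0.03 on ILMN_1222543, 0.11 on ILMN_1226936 and -0.01 on ILMN_2474378, and the Ugt1a5 probes by -0.04 on ILMN_1225154 and 0.05 on ILMN_1249230. Enzymes of the Ugt1a locus share their last exons, so a probe there may not tell them apart. Ugt8a, which makes galactosylceramide, differed by 0.10 (adjusted p = 0.865, limma). Sult1a1, which sulfates phenols, differed by -0.09 on ILMN_2745370 and -0.02 on ILMN_1234145, and the cholesterol sulfotransferase Sult2b1 by -0.03 (adjusted p = 0.865, 0.995 and 0.977).

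**Figure D4:**
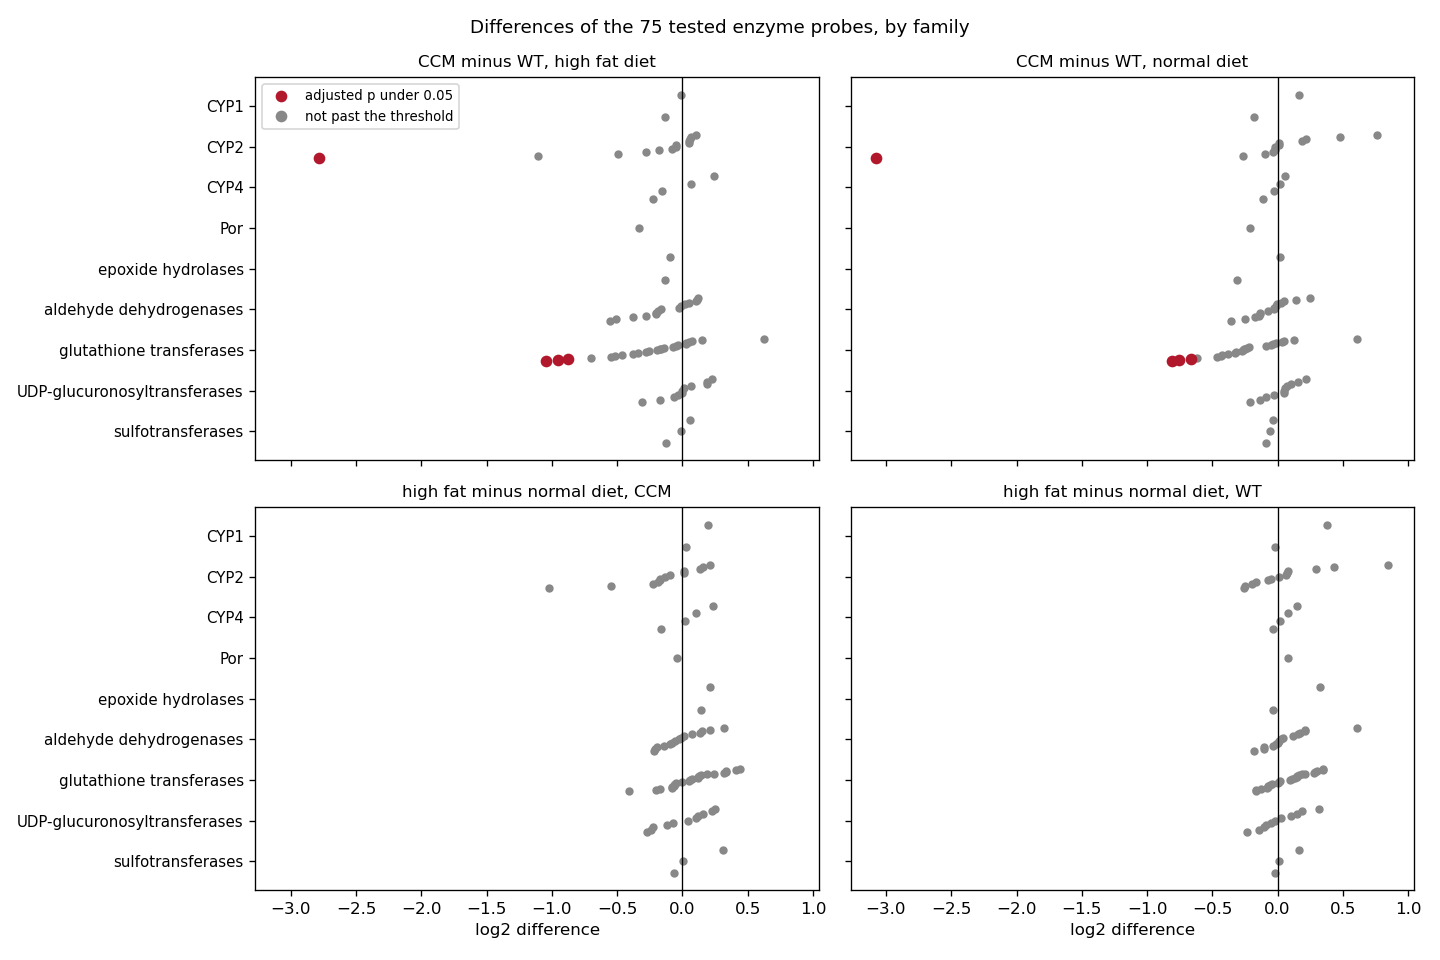
Log2 differences (horizontal axis) of the 75 tested member probes by enzyme family, with CCM minus WT in the upper panels and high fat minus normal diet in the lower panels, where vertical offsets within a family only separate points. Red points are past an adjusted p of 0.05: Cyp2b10 and 3 glutathione transferase probes lie below 0 on each diet, and no probe is red for diet.

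A count of probes whose genotypes did not overlap was taken as well. On the high fat diet 8 of the 75 member probes had all CCM hearts below all WT hearts, where 2.46% of all probes did. They were Cyp2b10, the 3 Gsta1 probes, Gsta2 (ILMN_1248781), Gstm1, Por and Aldh6a1. On the normal diet there were 3 (Cyp2b10, Gstm1 and Gstt1), where 1.41% of all probes did, and across all 19 animals 2 (Cyp2b10 and Gstm1), where 0.640% did. No member had all CCM hearts above all WT hearts, which 2.29% of all probes had on the high fat diet, 1.33% on the normal diet and 0.433% across all animals.

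The diet comparisons ask whether the enzymes respond to the high fat diet within a genotype. No member was called in CCM hearts, where 0.0151% of all probes were called (0.0101% higher and 0.00504% lower), or in WT hearts, where 0.0252% were (limma). In CCM hearts 8 member probes had an unadjusted p under 0.05 (10.7%, against 8.45% of all probes) and in WT hearts 3 (4%, against 2.97%), both shares near those of all probes. Those in WT hearts were Ephx2 at 0.32 ± 0.10, Aldh1l2 at 0.61 ± 0.21 and Ugt1a5 (ILMN_1249230) at -0.23 ± 0.09 (SE, high fat minus normal), and Aldh1l2 was named after its values were seen. Ephx2 differed in CCM hearts by 0.21 ± 0.09 (adjusted p = 0.589, and 0.995 in WT hearts). The median diet difference of the 75 probes was 0.01 in CCM and 0.02 in WT hearts. The genotype effect differed between diets for no member and for none of the 19840 probes (0% called), with 3 members at an unadjusted p under 0.05 (4%, against 2.58% of all probes): Cyp2e1, Gsto1 and Ugt1a5.

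Regulators and companions of these enzymes were read from lists written with general knowledge of the pathway and with earlier results of these data known. Of the PAR bZIP factors, Dbp read 8.64, 8.76, 8.72, 8.93 and 8.85 log2 in CCM hearts on the high fat diet, against 10.23, 10.28, 10.35 and 10.75 in WT hearts, and on the normal diet 8.50, 8.93, 9.04, 8.62 and 9.06 in CCM hearts, against 11.30, 10.41, 10.75, 10.64 and 10.99 in WT hearts. Every CCM heart was below every WT heart. Dbp differed by -1.63 ± 0.16 on the high fat diet and -1.99 ± 0.15 on the normal diet (SE, adjusted p = 5.95e-06 and 1.26e-07, limma), and Tef by -1.42 ± 0.12 and -1.44 ± 0.12 on ILMN_1258676 (adjusted p = 9.38e-07 and 2.38e-07). The Tef probes disagreed: ILMN_2715400 was also lower, by similar amounts (-1.34 ± 0.17 on the high fat and -1.31 ± 0.16 on the normal diet, adjusted p = 1.19e-04 and 8.53e-05), and ILMN_2754871 was not called (0.16 ± 0.15 and -0.34 ± 0.14, adjusted p = 0.862 and 0.469). Signals of ILMN_2754871 were low in every group, with group means of 5.43 to 5.84 log2. Group means were 5.53 to 6.88 on ILMN_2715400 and 10.71 to 12.15 on ILMN_1258676. Hlf was detected on no array, and Nfil3, a repressor at the same sites, was not analysed here. A relation between these factors and the enzymes was not tested, since the same animals carry both differences. With hearts from the same time of day only, a change in daily phase or daily mean of Dbp and Tef was not tested either.

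Of 13 xenobiotic receptors and partners 11 were tested, and Ahrr, the repressor of the aryl hydrocarbon receptor, was lower on the high fat diet (-0.73 ± 0.16, SE, adjusted p = 0.0168, limma) and over both diets (-0.65 ± 0.11, adjusted p = 6.68e-04). On the normal diet none of the 11 was called, with a smallest adjusted p of 0.0552 (limma). None was called for a difference of the genotype effect between diets. Nr1i3, the receptor known to induce Cyp2b10 in mouse liver, was detected on 7 arrays (ILMN_2481771) and differed by -0.05 over both diets (adjusted p = 0.889). Signals of this Nr1i3 probe were low, with group means of 5.39 to 5.48 log2. Another Nr1i3 probe (ILMN_1221049), on 3 arrays and so not tested, averaged 5.28 in CCM and 5.43 in WT hearts. The remaining Nr1i3 probes, Ahr and Nr1i2 were detected on no array. Of 31 other oxidation, reduction and hydrolysis enzymes 20 were tested, and 2 were lower on both diets with none higher: the carboxylesterase Ces1d (-3.56 ± 0.14 on the high fat and -3.30 ± 0.14 on the normal diet, adjusted p = 7.14e-12 and 9.92e-12) and the monoamine oxidase Maob (-0.91 ± 0.23 and -0.95 ± 0.21, adjusted p = 0.0483 and 0.0258). Of 15 genes of haem and electron supply 13 were tested, and the cytochrome b5 reductase Cyb5r1 was higher over both diets (0.32 ± 0.07, adjusted p = 0.0154).

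Of 20 transporters 15 were tested. Slc47a1, which exports organic cations, was higher on the high fat diet (0.50 ± 0.11) and the normal diet (0.53 ± 0.10, SE, adjusted p = 0.0151 and 0.00552, limma). Over both diets the phospholipid transporter Abcb4 (0.27 ± 0.06) was also higher, and the carnitine importer Slc22a5 (-0.50 ± 0.12) and Abcc9, a subunit of a potassium channel (-0.43 ± 0.10), were lower (adjusted p = 0.0175, 0.0161 and 0.0124). None of 12 tested genes of 20 listed for other conjugation and cofactor supply was called.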

How the data were processed

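Illumina bead arrays measured total heart RNA, 1 array per animal, and groups were taken from the labels. Per the file headers, the authors deposited linear bead-signal intensities without normalization between arrays, each beside a detection p-value. The submitters' processing notes name BeadStudio 3. Normalized intensities from the authors, whose method the sources used here do not give, served as an alternative.

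Signals were background-corrected, quantile normalized and put on the log2 scale with neqc in limma 3.58.1 (R 4.3.3; offset 16). Probes detected at p under 0.05 on at least 4 of 19 arrays (19840) were fitted with a mean per group over all 19 animals (lmFit, eBayes; degrees of freedom 15 residual and 3.67 prior), two-sided, with Benjamini-Hochberg adjustment over all of them and a threshold of 0.05. This gave 6 comparisons: genotype on each diet and over both, diet within each genotype, and the difference between them. On this scale folds of dim probes are understated. The number of arrays and signal over background limit the precision. The fit was tested on simulated data.

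Members were matched on the file's symbols, and 130 of 131 symbols stand unchanged in the RefSeq gene table (GRCm38.p6), where Cyp2c44 is Cyp2c23. Promoter windows came from RefSeq and were aligned with Biopython 1.88. Named were members called in any comparison, the 3 brightest genes of each family, members differing by 1 log2 or more between genotypes, the PAR bZIP factors, called genes of the other lists, of which 1 is not reported here, and Clock. Members, gene lists and tests were chosen with earlier results of these data known. Alternatives covered background correction, normalization, filters, probes per symbol, variance model, samples in the fit, animal numbers under and over 20, the 3 dimmest arrays and each animal left out.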

Additional observations from a re-analysis of the deposited data

Results flagged for a closer look

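In 160 groups of 4 or 5 animals over 40 probes of the named genes, 10 held a value far from the rest by Dixon's criterion, where chance gives about 1 in 20 (8). In CCM hearts on the high fat diet these were Cyp1b1 (ILMN_1232716) in replicate 1 at 8.47 log2, below the others at 9.12 to 9.19; Cyp2e1 in replicate 2 at 7.87 (ILMN_1214390) and 7.64 (ILMN_2687014), the others being at most 5.49 and 5.66; Ugt1a5 (ILMN_1225154) in replicate 3 at 6.51; and Gsta2 (ILMN_1248849) in replicate 5 at 6.49, the others being at least 7.02. In CCM hearts on the normal diet they were Ugt1a10 (ILMN_2474378) in replicate 3 at 5.93, Cyp2b10 in replicate 5 at 6.72 and Gsto1 in replicate 5 at 12.40. In WT hearts on the normal diet they were Ugt8a in replicate 1 at 6.60 and Aldh5a1 (ILMN_2490536) in replicate 4 at 10.03. Cyp2b10 in that CCM heart was still below every WT heart.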

How the results depend on the processing

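The 37 single differences followed were genotype differences of the called members and of Aldh2, Cyp2e1, Gstm7 and Por. Over 1118 alternatives 1024 kept their side of the threshold, 69 lost a call and 25 gained one. None changed sign, but many alternatives could not change it. A single-diet difference stays the same without an animal of the other diet. Settings of filters, probes per symbol, variance model or groups in the fit also leave the difference itself unchanged. Cyp2b10 kept its call on each diet and over both under every alternative run and without each animal in turn, with differences over both diets between -3.11 and -2.02. Member counts moved more. On the normal diet the 4 calls became 1 with no filter on dim probes, with only the groups of the comparison, with animals numbered over 20 or without the 3 dimmest arrays by mean signal, and 2 with animals numbered under 20. On the high fat diet the 4 calls became 2 with 1 probe per symbol or without those 3 arrays, and 1 with animals numbered under 20 or over 20. Over both diets the number of calls went from 8 to 5 with animals under 20 and to 2 with animals over 20. With animals under 20, Gsta1 ILMN_2657636 and ILMN_1231997, Gstm1 and Gstt1 lost their calls, so the 5 include a probe outside the 8. Without each animal in turn the counts ran from 1 to 4, from 3 to 5 and from 8 to 10. For diet and for the difference between diets the count was 0 in all runs. Why the counts moved was not tested, beyond the fewer probes or animals that some settings leave. Leaving out 1 animal also gave calls: over both diets to Aldh2 (without WT high fat replicate 2, adjusted p = 0.049) and Por (0.0353 without CCM normal replicate 3, 0.038 without WT high fat replicate 2 and 0.0482 without WT normal replicate 2). It gave them on 1 diet to Gsta1 (0.0444 on the high fat diet without CCM normal replicate 5, and 0.0326 on the normal diet without CCM normal replicate 3) and Gstt1 (0.0386 on the high fat diet without CCM high fat replicate 5, and 0.0171 on the high fat and 0.0424 on the normal diet without WT high fat replicate 1).

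Fitting animal numbers as a block, 10 animals under 20 and 9 over 20, gave 6 calls on each diet and 10 over both, among them Gstm7, higher by 0.69 (adjusted p = 0.0312). With animals under 20 and animals over 20 taken apart, Cyp2b10 differed over both diets by -3.11 and -2.80 (adjusted p = 4.43e-04 and 0.00265) and Gsta2 ILMN_1248781 by -0.80 and -1.03 (adjusted p = 0.0267 and 0.0284). Few animals are left in each of these sets and in single-diet tests, which bounds what they can call. No paired analysis was possible because the labels give every animal its own number and no number is shared between groups.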
